A study of Homo sapiens with 6 samples.

Results

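The genes described here are the matrix metalloproteases, their tissue inhibitors and the urokinase system: MMP1, MMP2, MMP14, MMP15, TIMP1, TIMP2, TIMP3, PLAU and PLAUR. They were taken by gene symbol from a table of 23524 genes, and all 9 were listed. RNA-Seq had been run on Hep G2, a cultured line from a human liver cancer that keeps many traits of hepatocytes. The control cells carried an empty lentiviral vector and the EFTUD2 cells carried a lentivirus that expresses EFTUD2, a GTPase of the U5 part of the spliceosome, and 3 libraries of each group were compared. Both groups were stable lines (the study selected its transduced cells with puromycin), with no sign in the labels of more than a single line of each or of separate cultures behind the replicate numbers, so the p-values below measure the spread between libraries, which may be technical. The study had followed invasion and metastasis in these cells, and the comparison asks how the transcripts of this matrix-degrading system stood when EFTUD2 was raised.

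Matrix metalloproteases are zinc enzymes that cut collagens and other matrix proteins and are made as inactive precursors. TIMPs bind their active site and block it. PLAU, the urokinase plasminogen activator, turns plasminogen into plasmin at the cell surface while bound to its receptor PLAUR, and plasmin can in turn activate several metalloproteases. MMP14, which is anchored in the membrane, activates the precursor of MMP2 with the help of TIMP2, so that TIMP2 takes part in activation as well as in inhibition. In liver, matrix turnover by these proteins is best known from fibrosis and tumor invasion, where stromal cells make many of them.

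No member passed the test across the table. PLAU stood lower in all 3 EFTUD2 libraries than in any control, while MMP1 and TIMP2 stood higher in all 3. The other 6 overlapped between the groups, and for TIMP1, TIMP3, MMP14 and PLAUR EFTUD2 replicate 3 stood apart from the other EFTUD2 libraries, on the opposite side of the control mean.

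The levels are FPKM, fragments scaled to transcript length and library size, which can be set side by side between genes. How many reads lie behind a value could not be recovered, since the low values share no step that would give the depth. Fold changes are differences of log2(FPKM + 1), a scale that shrinks the differences of genes with low levels, and their errors and adjusted p-values come from limma fitted to the 17222 genes whose mean reached 0.1 FPKM, with Benjamini-Hochberg adjustment. All 9 members were among them. Of the 17222 genes, 0 (0%) had an adjusted p below the threshold of 0.05, the smallest being 0.126, and 2118 had an unadjusted p below it (4.4% of genes with EFTUD2 higher and 7.9% with EFTUD2 lower). For 7.92% of genes all 3 EFTUD2 values lay above all 3 control values, and for 19.4% they lay below. With 3 libraries a group, the smallest p of an exact two-sided permutation test is 0.1.

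EFTUD2 itself stood at 41.14, 54.35 and 46.34 FPKM in control replicates 1 to 3, against 106.6, 102.9 and 109.5 FPKM in EFTUD2 replicates 1 to 3. The groups were far apart, with a ratio of means of 2.25 and a log2 fold change of 1.16 (standard error 0.12, limma adjusted p = 0.131). Reads of the vector's copy and of the cells' own gene are counted together in this row. EFTUD2 replicate 3 differed from the other libraries over the whole table. The SD over genes of its log2 differences was 0.508 to EFTUD2 replicate 1 and 0.596 to replicate 2, against 0.231 between those 2 and 0.213 to 0.363 between controls. Without it, 131 genes (0.761%) passed the adjusted threshold, and 14.7% of genes lay wholly above and 25.2% wholly below the controls. Each member is therefore also given without this library.

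Among the metalloproteases, the bulk of the transcript was MMP15, a membrane-type enzyme, which made up 84.5 to 88.0% of the summed FPKM of the 4 MMP members in every library. In the control cells the order of mean levels was MMP15, TIMP1, TIMP2, TIMP3, MMP14, PLAU, PLAUR, MMP2 and MMP1, from 51.5 ± 6.71 FPKM for MMP15 (SD, n = 3) to 0.11 ± 0.04 FPKM for MMP1. Neighbours whose control ranges overlapped or touched were MMP15 and TIMP1, TIMP2 and TIMP3, and MMP2 and MMP1. By the means of the EFTUD2 cells PLAUR came before PLAU and MMP1 before MMP2, but in EFTUD2 replicate 3 both pairs kept the order of the controls.

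On GRCh38 the RefSeq genes lie apart, with MMP2 at chr16:55478830-55506691 and MMP15 at chr16:58025754-58046901 on the same chromosome, MMP14 at chr14:22836585-22847758, TIMP1 at chrX:47582436-47586789 and TIMP3 at chr22:32801705-32863041, all on the plus strand. TIMP2 at chr17:78852977-78925387 and PLAUR at chr19:43646095-43670169 are on the minus strand. TIMP1 lies inside SYN1 and TIMP3 inside SYN3, on the opposite strand, with 0 exonic bases shared. MMP1 shares 7.61% of its exonic bases with the pseudogene WTAPP1, and TIMP2 shares 6.52% with an antisense transcript, both on the opposite strand. On the same strand TIMP2 shares 3.52% with CEP295NL, and MMP2 shares 3.53% with an uncharacterized transcript. A small part of the reads of MMP1, MMP2 and TIMP2 could therefore be divided.

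**Figure D1:**
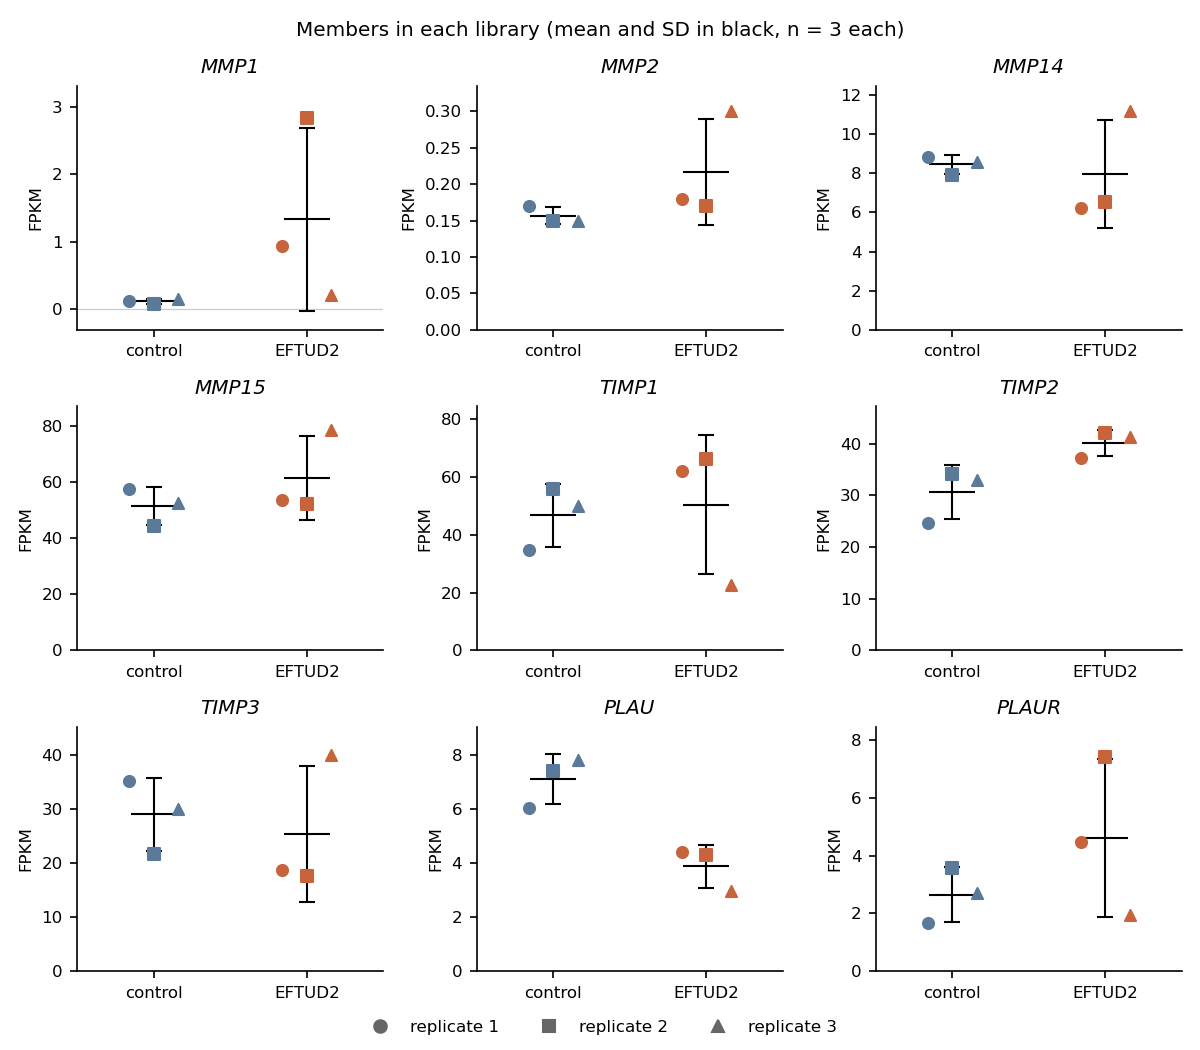
FPKM (vertical axes, each with its own range) of the 9 genes in the 3 control and 3 EFTUD2 libraries, with the marker shape giving the replicate number and black lines the mean and SD. The groups are separate for MMP1, TIMP2 and PLAU, and EFTUD2 replicate 3, the triangle, lies away from the other EFTUD2 libraries for most of the others.

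MMP1, the interstitial collagenase, which opens the triple helix of fibrillar collagen, stood at 0.11, 0.07 and 0.15 FPKM in control replicates 1 to 3, against 0.94, 2.84 and 0.21 FPKM in EFTUD2 replicates 1 to 3. Every EFTUD2 library was above every control, but the 3 were very unlike each other, and replicate 3 was close to the highest control. The means were 0.11 ± 0.04 and 1.33 ± 1.36 FPKM (SD, n = 3), a ratio of 12.1 that rests mostly on replicate 2, which was 3.02 times replicate 1 and 13.5 times replicate 3. On the log2(FPKM + 1) scale the difference was 0.91 (standard error 0.38, limma adjusted p = 0.402). Without EFTUD2 replicate 3 it was 1.30 (standard error 0.27, limma adjusted p = 0.105), and without EFTUD2 replicate 2 it was 0.47 (limma adjusted p = 0.38). The controls lie so close to 0 that a few reads may decide their values.

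MMP1 was among the transcripts for which the study designed qPCR primers. The study reported that some of the genes most raised in its RNA-Seq were raised by qPCR as well. The words of that figure legend do not name the genes, so whether MMP1 was among them was not read here. Its primer pair, shown because it fixes which stretch of the transcript that assay reads, matched 1 transcript of GENCODE 29 with a product of 199 bases. The forward primer lies in exon 3 at chr11:102797073-102797095 and the reverse primer in exon 4 at chr11:102796673-102796694 (GRCh38, gene on the minus strand), both within the coding sequence, and no part of either is in capitals because they carry no mismatch.
MMP1 forward: ctctggagtaatgtcacacctct
MMP1 reverse: tgttggtccacctttcatcttc

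The gene lies at chr11:102789919-102798160 within a row of MMP genes, so its neighbours were read as well. MMP7, matrilysin, which lies 259172 bases from MMP1, stood at 0.09, 0.23 and 0.15 FPKM in the controls, against 1.58, 6.74 and 0.29 FPKM in the EFTUD2 libraries. This is the same order of the EFTUD2 libraries as for MMP1, with groups that did not overlap (log2 fold change 1.35, standard error 0.59, limma adjusted p = 0.402, and 1.95 with an adjusted p of 0.114 without EFTUD2 replicate 3). MMP3, stromelysin-1, 37641 bases away on the other side and named here after its values were seen, stood at 0.97, 1.35 and 1.19 FPKM and at 4.25, 6.28 and 0.68 FPKM. There EFTUD2 replicate 3 was the lowest of all 6 libraries, so the groups overlapped (limma adjusted p = 0.448, and 0.0314 without that library). MMP8, MMP10, MMP12, MMP13 and MMP27, which lie in the same row, were at or under 0.02 FPKM in every library, and MMP20 was between 0.04 and 0.16 FPKM.

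**Figure D2:**
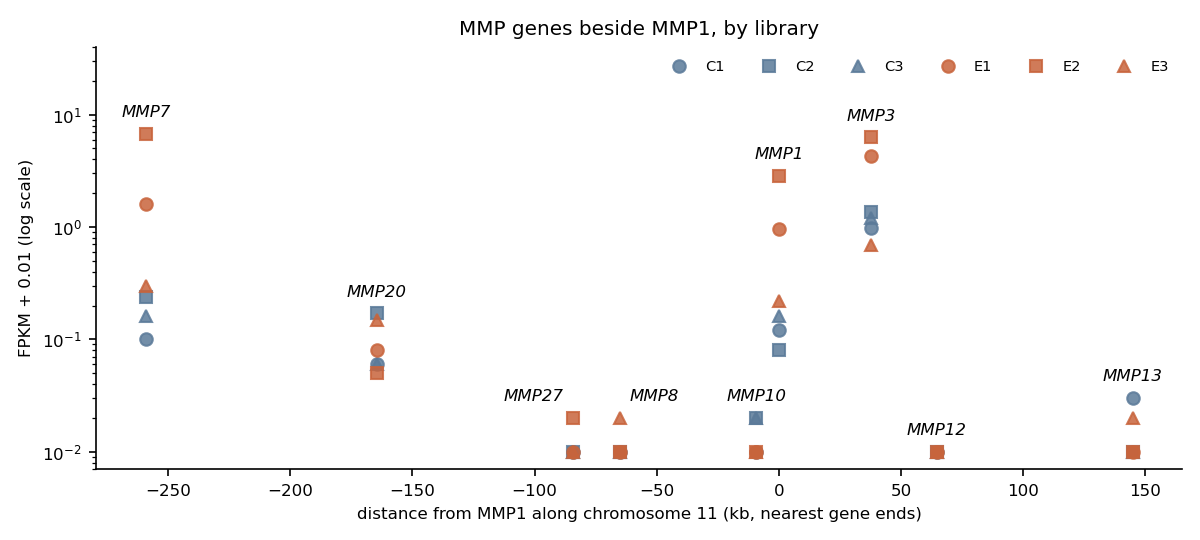
FPKM + 0.01 (log scale) of the MMP genes around MMP1 by their distance from it on chromosome 11 in kb, with controls (C) in blue, EFTUD2 libraries (E) in orange and the marker shape giving the replicate number. MMP1, MMP7 and MMP3 are highest in EFTUD2 replicate 2 and next in replicate 1, at 2.84, 6.74 and 6.28 FPKM in replicate 2, and genes between them stay near 0.

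MMP2, gelatinase A, was barely present, at 0.17, 0.15 and 0.15 FPKM in the controls and 0.18, 0.17 and 0.30 FPKM in the EFTUD2 libraries. The lowest EFTUD2 value equalled the highest control, and the interval of the log2 difference ran from -0.11 to 0.26 around 0.07 (limma adjusted p = 0.657). Without EFTUD2 replicate 3 it was 0.02 (limma adjusted p = 0.891). At such levels a difference between the groups was not detectable.

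MMP14, the membrane-type enzyme that activates MMP2, stood at 8.85, 7.93 and 8.56 FPKM in the controls, against 6.21, 6.52 and 11.15 FPKM in the EFTUD2 libraries. EFTUD2 replicates 1 and 2 were the lowest of the 6 libraries and replicate 3 the highest, so that the group means of 8.45 ± 0.470 and 7.96 ± 2.77 FPKM (SD, n = 3) hardly differed. The log2 fold change was -0.12 with an interval from -0.63 to 0.39 (limma adjusted p = 0.795). Without replicate 3 it was -0.36 (standard error 0.09, limma adjusted p = 0.158), with all EFTUD2 values below all controls.

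MMP15 stood at 57.58, 44.3 and 52.58 FPKM in the controls, against 53.52, 52.09 and 78.44 FPKM in the EFTUD2 libraries. EFTUD2 replicates 1 and 2 lay within the control range and replicate 3 above it. The log2 fold change was 0.23 with an interval from -0.21 to 0.68 (limma adjusted p = 0.554), and without replicate 3 it was 0.04, with an interval from -0.26 to 0.34.

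The 3 inhibitors behaved differently from each other. TIMP1, a secreted inhibitor of most soluble metalloproteases, stood at 34.72, 55.71 and 49.92 FPKM in the controls, against 62.23, 66.28 and 22.8 FPKM in the EFTUD2 libraries. Replicates 1 and 2 were the highest of the 6 libraries and replicate 3 the lowest, at 0.355 of the mean of the other 2. The means were 46.8 ± 10.8 and 50.4 ± 24.0 FPKM (SD, n = 3), and the log2 fold change was -0.01 with an interval from -0.99 to 0.97 (limma adjusted p = 0.992), so that the mean of the levels and the mean on the log scale even differed in sign. Without replicate 3 the log2 fold change was 0.48 (standard error 0.20, limma adjusted p = 0.306).

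TIMP2 stood at 24.64, 34.2 and 32.99 FPKM in the controls, against 37.31, 42.06 and 41.23 FPKM in the EFTUD2 libraries. All EFTUD2 values were above all controls, and replicate 3 lay between the other 2, which makes TIMP2 the inhibitor least tied to that library. The means were 30.6 ± 5.21 and 40.2 ± 2.54 FPKM (SD, n = 3), a ratio of 1.31, and the log2 fold change was 0.39 (standard error 0.15, limma adjusted p = 0.402, exact permutation p = 0.1). Without EFTUD2 replicate 3 it was 0.38 (standard error 0.16, limma adjusted p = 0.306), and without control replicate 1, the lowest library, it was 0.25. The gap between the highest control and the lowest EFTUD2 library was smaller than the spread among the controls.

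TIMP3, which binds to the matrix and also blocks ADAM17, stood at 35.15, 21.69 and 29.94 FPKM in the controls, against 18.63, 17.53 and 39.84 FPKM in the EFTUD2 libraries. Replicates 1 and 2 were the lowest of the 6 and replicate 3 the highest, at 2.20 times the mean of the other 2. The log2 fold change was -0.26 with an interval from -1.05 to 0.53 (limma adjusted p = 0.707), and without replicate 3 it was -0.62 (standard error 0.20, limma adjusted p = 0.206). It was -0.05 without EFTUD2 replicate 2 and -0.44 without control replicate 2.

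PLAU stood at 6.05, 7.41 and 7.82 FPKM in the controls, against 4.41, 4.28 and 2.97 FPKM in the EFTUD2 libraries. Here the EFTUD2 libraries were all below the controls, replicate 3 being the lowest. The means were 7.09 ± 0.927 and 3.89 ± 0.797 FPKM (SD, n = 3), 45.2% lower in the EFTUD2 cells. The log2 fold change was -0.74 (standard error 0.17, interval -1.15 to -0.32). This was the member furthest from 0 in units of its error, but it did not pass the adjustment (limma adjusted p = 0.385, exact permutation p = 0.1). Without replicate 3 the log2 fold change was -0.59 (standard error 0.13, limma adjusted p = 0.108). PLAU lies at chr10:73908832-73917494 (GRCh38), and 31.1% of its exonic bases in GENCODE 29 are shared with C10orf55 on the opposite strand. C10orf55 was listed at 0.03 to 0.16 FPKM, and whether the counting used strand is not stated in the sources used here, so the division of reads between them is uncertain.

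PLAUR stood at 1.67, 3.58 and 2.7 FPKM in the controls, against 4.48, 7.41 and 1.93 FPKM in the EFTUD2 libraries. Replicates 1 and 2 were above every control, and replicate 3 was above only control replicate 1. The means were 2.65 ± 0.956 and 4.61 ± 2.74 FPKM (SD, n = 3). The log2 fold change was 0.53, with an interval from -0.42 to 1.47 (limma adjusted p = 0.532). Without replicate 3 the log2 fold change was 0.93 (standard error 0.28, limma adjusted p = 0.192). It was 0.17 without EFTUD2 replicate 2 and 0.32 without control replicate 1.

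The receptor and its ligand therefore stood on opposite sides of the control mean in EFTUD2 replicates 1 and 2. The ratio of PLAUR to PLAU was 0.276, 0.483 and 0.345 in the controls and 1.02, 1.73 and 0.65 in the EFTUD2 libraries. All 3 EFTUD2 ratios were above all control ratios, in replicate 3 through the lower PLAU alone. This ratio was formed after the values were seen and has no test.

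By count, 2 of 9 members lay wholly above the controls and 1 wholly below, beside 7.92% and 19.4% of all tested genes, and 0 of 9 passed the adjusted threshold. The log2 fold changes of 5 members were above 0 and of 4 below, with a median of 0.07 beside -0.08 over all tested genes. At an unadjusted p under the threshold there were 2 higher members (MMP1 and TIMP2) and 1 lower (PLAU). Without EFTUD2 replicate 3, MMP1, TIMP1, TIMP2 and PLAUR lay wholly above the controls and MMP14, TIMP3 and PLAU wholly below, which is 4 and 3 of 9 beside 14.7% and 25.2% of all genes. Even then 0 members passed the adjusted threshold, beside 0.761% of all genes. Leaving out that library makes 3 against 2, in which groups are separate more easily.

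**Figure D3:**
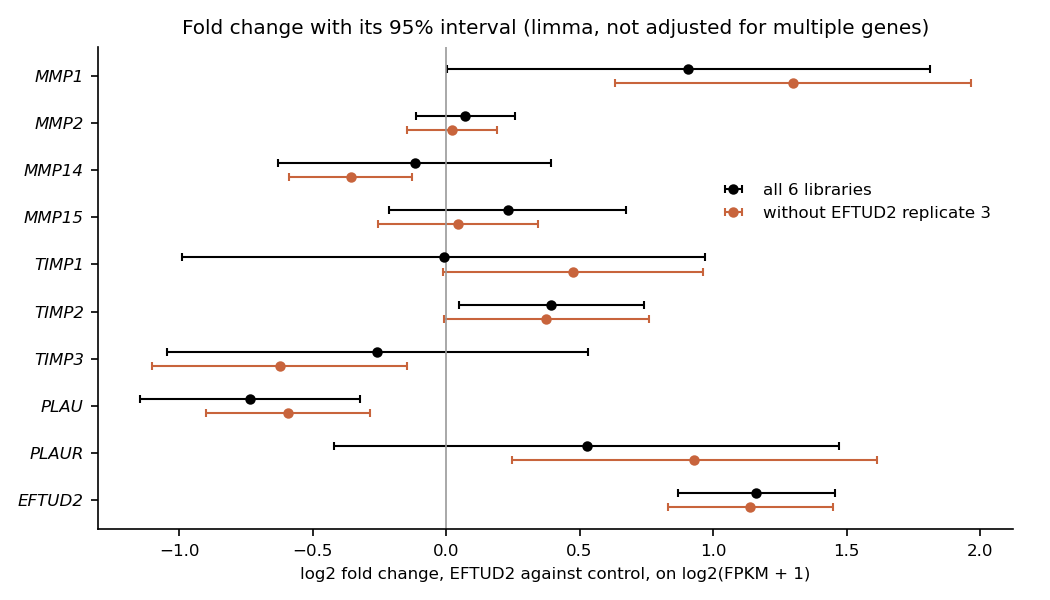
Log2 fold change of each member and of EFTUD2 with its 95% interval from limma, not adjusted for the number of genes, for all 6 libraries (black) and without EFTUD2 replicate 3 (orange). The intervals of MMP1, TIMP2 and PLAU leave out 0 with all libraries, and those of MMP14, TIMP3 and PLAUR do so only without replicate 3, where that of TIMP2 reaches it.

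The place of EFTUD2 replicate 3 could be measured for each member. Its log2(FPKM + 1) less the mean of EFTUD2 replicates 1 and 2 was -1.45 for TIMP1, -1.21 for PLAUR, -1.17 for MMP1 and 1.10 for TIMP3. Of all tested genes, 2.03% differed at least as much as TIMP1 between these libraries, 3.86% as much as PLAUR, 4.20% as much as MMP1 and 5.18% as much as TIMP3. TIMP2 was at the other end, with a difference of 0.06 that 89.8% of genes reached.

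Sorted by TIMP1 from low to high, the libraries ran EFTUD2 replicate 3, control 1, control 3, control 2, EFTUD2 replicate 1 and EFTUD2 replicate 2. TIMP3 ran in exactly the reverse order, MMP14 in the reverse order but for EFTUD2 replicates 1 and 2, and PLAUR in the order of TIMP1 but for its lowest 2 libraries. The controls thus took part in the order, control 1 lying toward EFTUD2 replicate 3 and control 2 toward the other EFTUD2 libraries. Of all tested genes, 131 (0.761%) had the order of TIMP1 and 123 (0.714%) its reverse. The summed hepatocyte markers differed between the libraries as well, at 14170, 9796 and 12300 FPKM in the controls and 12160, 12280 and 17440 FPKM in the EFTUD2 libraries, highest in EFTUD2 replicate 3. The markers were not alike in this, since ALB, APOA1, APOB, SERPINA1 and TF were highest in EFTUD2 replicate 3, AFP, APOA2 and TTR in control 1 and FGB in EFTUD2 replicate 2, while HNF4A was lowest in EFTUD2 replicate 3, at 47.31 FPKM against 65.44 to 79.91 FPKM elsewhere. Their part in the order of the members was not tested.

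Ratios within a library restate these levels as 1 gene or sum against another. TIMP1 and TIMP3 ran in reverse order, so their ratio had to follow the order of TIMP1 and adds no further evidence. TIMP1 was 0.988, 2.57 and 1.67 times TIMP3 in the controls and 3.34, 3.78 and 0.572 times TIMP3 in the EFTUD2 libraries. EFTUD2 replicates 1 and 2 had more TIMP1 for each TIMP3 than any control and replicate 3 less. The summed FPKM of the 3 TIMPs was 1.42, 2.13 and 1.84 times that of the 4 MMPs in the controls and 1.94, 2.04 and 1.15 times in the EFTUD2 libraries, where the groups overlapped and replicate 3 was the lowest library. These are ratios of transcripts, not of proteins, and they have no test.

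**Figure D4:**
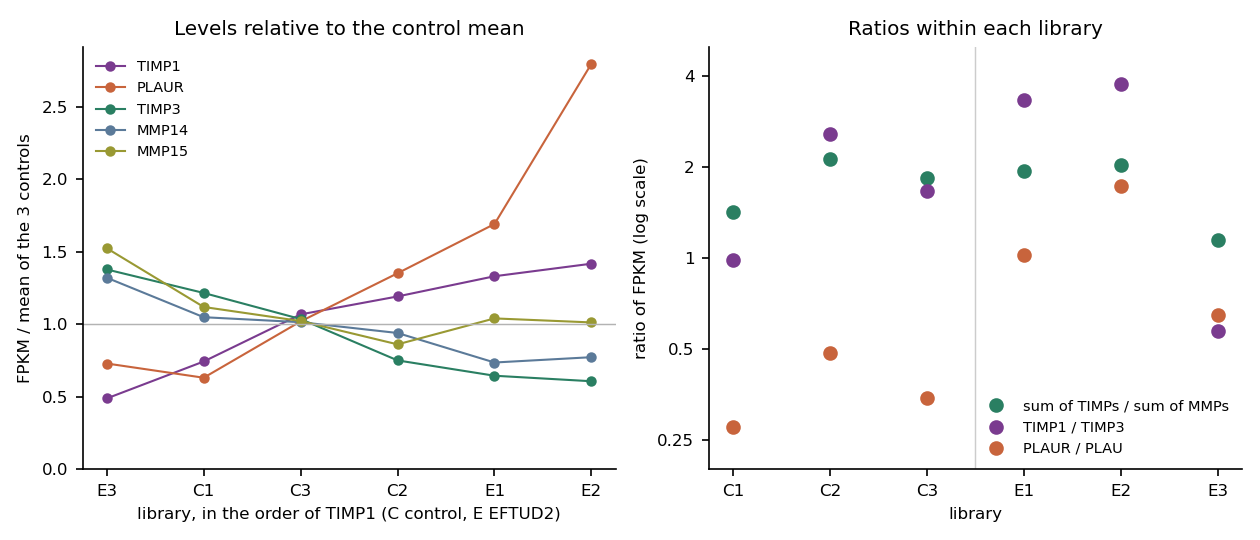
Left, FPKM of 5 members divided by their control mean, with the libraries (C control, E EFTUD2, with replicate number) in the order of TIMP1; right, ratios of FPKM within each library on a log scale. TIMP1 and PLAUR are high where TIMP3 and MMP14 are low, and the ratio of PLAUR to PLAU is at least 0.65 in each EFTUD2 library and at most 0.483 in each control.

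Promoter sequence was looked at for the members that run together or in reverse. RefSeq windows (GRCh38.p14) from 250 bases before to 50 after the start were matched for 6 members, with 7 windows. The 6 were MMP14, MMP15, TIMP1, TIMP3, PLAU and PLAUR. No window was available for MMP1, MMP2 or TIMP2, so the search says nothing about these. The windows were searched on both strands for the AP-1 site that FOS and JUN proteins bind, with the letters TGANTCA, and the STAT site, with the letters TTCNNNGAA. The GC box was searched as GGGCGG, the ETS site as AGGAAG and the TATA box in its common form, with the letters TATAAA. Among all 35116 windows of that length, 7.71% held the AP-1 letters, 7.66% the STAT letters, 45.0% the GC box, 11.5% the TATA box and 33.6% the ETS letters. The AP-1 letters were found in PLAUR alone among the 6, and the STAT and TATA letters in none. GC boxes numbered 5 each in MMP15 and TIMP3, 3 in 1 of the PLAU windows, 2 in TIMP1 and 1 in MMP14, and the ETS letters occurred once in each of PLAU, PLAUR and TIMP1. The stretches below are shown so that TIMP3 and MMP14 can be read beside TIMP1, which they mirror, and they leave out bases that any GENCODE 29 exon covers. For PLAUR and PLAU, whose windows lie wholly in such exons, only a short piece is given. The PLAUR piece holds the AP-1 letters, and the PLAU piece holds the GC boxes that begin at -51 and -40 from the start. The PLAU GC box at -66 and the ETS letters of both genes lie outside these pieces. Capitals mark the GC box on either strand and, in PLAUR, the AP-1 letters, and the pieces are on the strand of the gene at chrX:47582186-47582312, chr22:32801455-32801700, chr14:22836335-22836556, chr19:43670339-43670365 (minus strand) and chr10:73911075-73911103. A match is a string of letters and not a measured binding site.
TIMP1: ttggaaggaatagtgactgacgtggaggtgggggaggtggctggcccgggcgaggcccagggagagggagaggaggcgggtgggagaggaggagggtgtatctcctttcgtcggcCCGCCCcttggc
TIMP3: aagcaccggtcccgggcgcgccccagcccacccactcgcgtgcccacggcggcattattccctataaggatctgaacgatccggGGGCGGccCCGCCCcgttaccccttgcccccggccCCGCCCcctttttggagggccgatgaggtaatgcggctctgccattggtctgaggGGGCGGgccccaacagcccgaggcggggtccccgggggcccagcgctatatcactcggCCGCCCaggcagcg
MMP14: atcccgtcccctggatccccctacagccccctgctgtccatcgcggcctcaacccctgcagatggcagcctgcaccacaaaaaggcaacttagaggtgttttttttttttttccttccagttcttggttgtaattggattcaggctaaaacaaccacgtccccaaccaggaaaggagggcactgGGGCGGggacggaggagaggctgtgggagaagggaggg
PLAUR: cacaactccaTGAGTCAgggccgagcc
PLAU: agggagGGGCGGcgccgGGGCGGgccctg

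Factors that bind AP-1 and ETS sites are known regulators of MMP1, PLAU and PLAUR. Of 10 such factors, 0 passed the adjusted threshold, and the median log2 fold change was -0.08. Of these factors 1 lay wholly above and 1 wholly below the controls, beside 7.92% and 19.4% of all tested genes. FOSL1, a FOS-family protein, stood at 15.16, 18.46 and 12.1 FPKM in the controls, against 7.43, 8.27 and 5.96 FPKM in the EFTUD2 libraries. All EFTUD2 values were below all controls (log2 fold change -0.97, standard error 0.19, limma adjusted p = 0.275). JUNB, which pairs with FOS proteins, stood at 20.25, 11.38 and 12.97 FPKM and at 21.36, 28.99 and 27.23 FPKM, wholly above the controls (log2 fold change 0.79, standard error 0.23, limma adjusted p = 0.402). The part of these factors in the levels of the members was not tested.

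The rest of the matrix-degrading system was read from fixed lists. The counts of each list stand beside 7.92% of all tested genes wholly above the controls and 19.4% wholly below. Of 19 other MMP genes, 18 were in the table and 12 of these stayed under 1 FPKM in every library. None of the 9 tested passed the adjusted threshold, 2 lay wholly above the controls and 1 wholly below. Of 12 ADAM and ADAMTS proteases, 7 were tested and 0 passed, with 0 wholly above and 1 wholly below. The median log2 fold change was 0.27 for the former list and -0.18 for the latter.

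Other inhibitors gave 0 of 9 tested genes past the threshold, with 2 wholly above and 0 wholly below the controls and a median log2 fold change of 0.39. Among them A2M, the plasma protease trap alpha-2-macroglobulin, stood at 886.05, 482.75 and 807.95 FPKM in the controls, against 1021.49, 916.49 and 1521.47 FPKM in the EFTUD2 libraries (log2 fold change 0.68, standard error 0.29, limma adjusted p = 0.402).

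Of 10 genes of plasminogen and its activation, all were tested and 0 passed, with 1 wholly above and 0 wholly below the controls and a median log2 fold change of 0.05. PLG, plasminogen itself, named here after its values were seen, stood at 1.02, 0.13 and 0.42 FPKM in the controls and 0.17, 0.31 and 1.11 FPKM in the EFTUD2 libraries, with no separation of the groups. Of 9 partners and other matrix-degrading enzymes, 7 were tested and 0 passed, with 2 wholly above and 1 wholly below. Those above were the lysosomal proteases CTSD, at 171.73, 163.88 and 209.71 FPKM against 260.64, 356.04 and 252.19 FPKM, and CTSB, at 158.04, 232.35 and 224.07 FPKM against 264.92, 285.61 and 310.36 FPKM. Their log2 fold changes were 0.66 (standard error 0.17) and 0.50 (standard error 0.17), both with a limma adjusted p = 0.402. Without EFTUD2 replicate 3 none of A2M, FOSL1, JUNB, CTSD and CTSB passed the adjusted threshold, the smallest adjusted p from limma being 0.0963 for FOSL1.

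Since stromal, immune and endothelial cells make several of these proteins, their markers were read beside them. All libraries are labelled as the cultured Hep G2 line and the labels name no other cell type. Whether every marker transcript came from that line was not tested. In bulk libraries the number of cells with a transcript and its amount per cell cannot be told apart. Of all tested genes, 7.92% lay wholly above the controls and 19.4% wholly below. Of 10 fibroblast markers 7 stayed under 1 FPKM in every library, and COL1A2 was listed at 0 in all. The summed level was 0.53 to 1.65 FPKM in the controls and 2.35 to 4.91 FPKM in the EFTUD2 libraries. Of 4 tested genes 1, COL3A1, lay wholly above the controls. COL1A1, COL3A1 and LUM were at or under 0.15 FPKM in every control. In EFTUD2 replicates 1 to 3 COL1A1 stood at 0.78, 2.05 and 0.11 FPKM and COL3A1 at 0.62, 1.49 and 0.14 FPKM. LUM stood at 0.35, 0.56 and 0.01 FPKM there. Most of the sum in EFTUD2 replicate 3 was PDGFRB, at 2.07 FPKM against 1.10 and 0.68 FPKM in replicates 1 and 2. The macrophage markers summed to 778.1 to 2282 FPKM in the controls and 887.3 to 1751 FPKM in the EFTUD2 libraries, nearly all of it LYZ, while PTPRC was at most 0.02 FPKM and TYROBP was listed at 0. Of 5 tested genes of that list 1 lay wholly above the controls and 0 wholly below. It was CD14, at 0.86, 0.60 and 1.03 FPKM in the controls and 1.41, 2.06 and 2.51 FPKM in the EFTUD2 libraries (log2 fold change 0.70, limma adjusted p = 0.401). The endothelial markers summed to 18.61 to 20.97 FPKM in the controls and 7.06 to 13.04 FPKM in the EFTUD2 libraries, with 2 of 8 tested genes wholly above and 2 wholly below. Most of that difference was ESAM, at 14.46, 15.88 and 15.68 FPKM in the controls and 8.2, 5.97 and 3.75 FPKM in the EFTUD2 libraries (log2 fold change -1.28, limma adjusted p = 0.268), while CDH5 and VWF lay wholly above the controls. All 10 hepatocyte markers were tested, with 2 wholly above the controls. No gene of these 4 lists passed the adjusted threshold with all libraries, and without EFTUD2 replicate 3 ESAM did (limma adjusted p = 0.0444). Their part in the levels of the members was not tested.

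Markers of basal and squamous epithelium summed to 38.53, 56.64 and 47.87 FPKM in the controls and to 113.4, 199.6 and 40.13 FPKM in the EFTUD2 libraries, high in the same 2 libraries as MMP1 and PLAUR. KRT17 made most of the difference, at 1.12, 1.80 and 1.32 FPKM in the controls and 66.92, 135.12 and 9.29 FPKM in the EFTUD2 libraries, while KRT5 and LGALS7 were listed at 0 in all. S100A2 stood on the other side, at 3.57, 4.41 and 3.71 FPKM in the controls and 1.29, 1.08 and 0.54 FPKM in the EFTUD2 libraries (log2 fold change -1.33, limma adjusted p = 0.207). Of the 5 tested genes of this list, 2 lay wholly above the controls and 1 wholly below, beside 7.92% and 19.4% of all tested genes, and 0 passed the adjusted threshold. Without EFTUD2 replicate 3, KRT17 (limma adjusted p = 0.0132) and S100A2 (0.0298) passed it. This pattern was not particular to the basal and squamous list. COL1A1, COL3A1 and LUM of the fibroblast list were likewise highest in EFTUD2 replicates 1 and 2. So were SERPINB2, MMP28 and ADAMTS1 of the lists of inhibitors and proteases, SERPINB2 at 0.14, 0.48 and 0.38 FPKM in the controls and 0.94, 2.14 and 0.09 FPKM in the EFTUD2 libraries. The marker genes, SERPINB2, MMP28 and ADAMTS1 were named after their values were seen. The part of these genes in the levels of MMP1 and PLAUR was not tested.

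The genes whose pattern was most like that of the 3 members with separate groups were found by the root mean square difference of centred log2(FPKM + 1) over the 6 libraries. For MMP1 they were MUC1 (0.0361), TBX1 (0.0383) and a transcript known only by a number of the sequencing provider. MUC1 stood at 0.08, 0.03 and 0.09 FPKM in the controls, against 0.75, 2.58 and 0.16 FPKM in the EFTUD2 libraries. For PLAU they were another such transcript, SOCS2 (0.0776) and COMMD3 (0.0881). SOCS2 stood at 2.52, 2.99 and 2.7 FPKM in the controls, against 1.41, 1.46 and 0.82 FPKM in the EFTUD2 libraries. For TIMP2 they were COX7C (0.0479), CTSH (0.0563) and KIF20A (0.0573). The likeness is over only 6 libraries that share the library effects given above, and it has no test.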

How the data were processed

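The authors sequenced poly-A RNA for 6 Hep G2 libraries (3 control, 3 EFTUD2, assigned from their labels) with a BGISEQ-500 instrument and deposited 1 table of FPKM per gene and library, rounded to 2 decimals. The submitters' processing notes name HISAT2, Bowtie2, RSEM, DESeq2 and the build hg38 without versions. FPKM values summed to 404342 to 416530 in the controls and 415880 to 434542 in the EFTUD2 libraries, and read depth could not be recovered (the commonest ratio among low values held at most 5.9% of genes), so no counting intervals are given.

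From these values log2(FPKM + 1) was computed and genes whose mean reached 0.1 FPKM were fitted with limma 3.58.1 (lmFit, eBayes with trend) in R 4.3.3, without covariates. Further steps used Python 3.11.15, pandas 2.3.3 and matplotlib 3.10.9. On simulated data for the comparison of EFTUD2 with control, 200 genes among 17222 were given a log2 change of 2. Of these 92% were recovered, with 12 false calls. In the measured libraries 0 of 17222 genes passed the adjusted threshold. KRT17 did not pass at a log2 fold change of 4.25 (limma adjusted p = 0.312), nor did EFTUD2 at 1.16 (limma adjusted p = 0.131). Recovery of a log2 change of 2 in the measured libraries was not tested. Members and lists were chosen with earlier results of these data known. Besides the members and EFTUD2, genes of the 6 lists of related proteases, inhibitors and factors (not of the marker lists) were named where groups did not overlap and the absolute log2 fold change was at least 0.5, up to 5 for each list, with the 3 genes most like each of 3 members. Locations came from RefSeq and GENCODE 29.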

Additional observations from a re-analysis of the deposited data

How the results depend on the processing

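Pseudocounts of 0.1 and 0.01, a filter of 1 FPKM on the mean or none at all, median-ratio, common-sum and quantile scaling, robust empirical Bayes, array weights, a replicate block and leaving out each library were tried, and gene-by-gene array weights were added after seeing the data. MMP1 and MMP2 have no value under the stricter filter. The log2 fold changes of MMP1 (0.47 to 2.87), MMP2, MMP15, TIMP2 (0.24 to 0.51), TIMP3, PLAU (-0.88 to -0.59), PLAUR and EFTUD2 kept their sign throughout. With a library left out, MMP1 ran from 0.466 (without EFTUD2 replicate 2) to 1.30, PLAUR from 0.169 (without EFTUD2 replicate 2) to 0.93 and TIMP3 from -0.624 to -0.0537 (without EFTUD2 replicate 2), the other ends being without EFTUD2 replicate 3. TIMP1 turned to 0.105 with median-ratio scaling, 0.0878 with quantile scaling, 0.256 with array weights and 0.318 with gene-by-gene weights, and ran from -0.274 to 0.476 with a library left out. MMP14 turned to 0.00927 with quantile scaling and ran from -0.358 to 0.0182 with a library left out. The cause was not tested.

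Of the 17222 tested genes, those past the adjusted threshold numbered 1246 with array weights (916 higher, 330 lower), whose estimation stopped before it converged, 1355 with gene-by-gene weights (725 higher, 630 lower), and 0 to 131 with a library left out, the 131 without EFTUD2 replicate 3. Of the 9 members, those called numbered 2 with array weights (MMP1 at a limma adjusted p of 0.0077 and PLAU at 0.0119), 4 with gene-by-gene weights (MMP1 higher, MMP14, TIMP3 and PLAU lower), and 0 with any library left out. Adjusted p over the alternatives ran from 0.0077 to 0.679 for MMP1, from 0.00969 to 0.679 for PLAU and from 0.134 to 0.679 for TIMP2. Members with separate groups numbered 3 to 7 with a library left out, 7 without EFTUD2 replicate 3. Without that library 14.7% of all tested genes lay wholly above the controls and 25.2% wholly below. The median over all genes shifted between -0.122 and 0.002.

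Same-numbered libraries correlated at -0.299, 0.353 and -0.0936 in their deviations from the group means. With 3 libraries a group these deviations depend on each other, so the values cannot tell whether the numbers pair the libraries. With the replicate block 0 genes and 0 members were called, as in the main fit. With 3 libraries a group and unknown depth, differences in MMP1 and MMP2 near 0.1 FPKM were not resolvable.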
